A study of Danio rerio and Xenopus laevis and Xenopus tropicalis with 8 samples.

Results

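The vegetal tip of the frog oocyte was taken as the last 10% of the usable sections along the animal-to-vegetal axis, and it was compared with the other sections of the vegetal zone, the last 33.3% of the usable sections of the same oocyte. Of 382 sections in 4 oocytes, 274 held at least 10% of the median section total of their oocyte and were kept. The tip comprised 27 of these, 6 and 7 sections in the 2 X. laevis oocytes and 7 and 7 in the 2 X. tropicalis oocytes. The rest of the vegetal zone comprised 65 sections, 15 and 17 in X. laevis and 17 and 16 in X. tropicalis. No expression value entered this choice beyond the section totals.

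The oocytes were mature and taken from ovary lobes of wild-type frogs. Per the paper's methods, they were dissected by hand and then dissociated with liberase. No genetic change or agent distinguishes any of them. The frogs' ages are not given in the sources used here. Each oocyte was frozen, cut from one pole to the other and sequenced by tomo-seq, in which every section receives its own barcode and transcripts are counted by molecular tags (UMIs) at their 3′ ends. The 2 oocytes of a species are the replicates. The labels do not say whether they came from different females, so p-values concern these oocytes only. In the fit of each species, the spread was estimated over all genes together. How far a single gene differed between its 2 oocytes therefore did not enter its p-value, and very small p-values rest on this pooling. Species cannot be told apart from section thickness, genome annotation and depth.

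In the frog oocyte, RNAs reach the vegetal cortex along 2 routes. The early route carries RNAs with the mitochondrial cloud, or Balbiani body, and delivers the germ plasm, the cytoplasm that directs the germ line, to the vegetal pole. The late route carries RNAs such as those of vegt and gdf1 to a broader part of the vegetal cortex with the help of motor proteins, where they serve germ layer formation. The vegetal cortex also holds the dorsal determinants, which microtubules shift towards the future dorsal side after fertilization.

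Depth differed between species. The kept and unkept sections together held 29227123 and 33187809 UMI counts in X. laevis and 20460221 and 13305606 in X. tropicalis. The tips held 540757 and 626491 counts in X. laevis and 252175 and 243812 in X. tropicalis, and the rest held 4098909, 6102419, 2166518 and 1508150 counts in the same order. Levels are given as CPM, the counts of a gene scaled to a region total of 1000000, so that more copies of one RNA and fewer copies of the others cannot be told apart. On this scale, log2 fold changes over all tested genes had a median of −0.24 in X. laevis and −0.21 in X. tropicalis, and of −0.05 and −0.02 with TMM factors, against which the changes below are to be read. Summed over 14 markers listed for oocytes (11 detected in X. laevis, 12 in X. tropicalis), the level was 2195 and 2666 CPM in the X. laevis tips and 2126 and 1850 CPM in the X. tropicalis tips, against 1642 to 2907 CPM in the rest.

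One section stood apart. The last kept section of X. tropicalis oocyte 1 followed 14 sections below the limit, none of which held more than 5815 counts, yet held 64765 counts, or 25.7% of that tip. It had 15.4 CPM of nanos1 against 16152 CPM in the other tip sections, and 324 against 9994 CPM of grip2. Its level of foxi2, an animal transcription factor, was 170 CPM (11 counts), against 256 CPM in the animal zone, the first 33.3% of the sections, and 32 CPM in the other tip sections. The section did not match the animal zone throughout. grip2 and vegt each had 324 CPM (21 counts) in it, against 6.82 and 63.3 CPM in the animal zone. dazl had 30.9 CPM (2 counts) against 34.5 CPM there. The content of the section goes against its position, and X. tropicalis results are therefore also given without it. The last kept section of X. laevis oocyte 2 was low as well, with 135 CPM of nanos1 and no grip2 count.

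The RNAs higher in the tip of both species were few, and the germ plasm RNAs nanos1, grip2, pgat and dazl were the steepest of them. Tip and rest were summed per oocyte and compared with edgeR's quasi-likelihood test, the oocyte being a block, at a threshold of 0.05 on the Benjamini-Hochberg adjusted p over all genes. In X. laevis, 778 of 15559 genes (5%) were higher in the tip and 190 (1.22%) lower. In X. tropicalis, 58 of 8837 genes (0.656%) were higher and 36 (0.407%) lower. Without the isolated section the X. tropicalis counts were 138 (1.57%) and 210 (2.38%) of 8813 genes, and 49 of the 58 and 33 of the 36 were among them. Both tip values lay above both rest values for 744 of the 778 genes higher in X. laevis and for 43 of the 58 in X. tropicalis, as they did for 13% and 6.78% of all tested genes. Of the higher genes, 246 in X. laevis and 16 in X. tropicalis differed by more than 4-fold.

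After the .L and .S endings of the X. laevis gene copies were removed, 737 of 14903 X. laevis symbols (4.95%) were higher in the tip and 192 (1.29%) lower. In all, 5331 symbols were tested in both species, of which 171 (3.21%) were higher in the X. laevis tip and 31 (0.582%) in the X. tropicalis tip. The 12 symbols higher in both were grip2, nanos1, pgat, dazl, sybu, ddx25, trim36, wnt11b, otx1, fgfr2, cnksr2 and thoc6, which is 7.02% of the X. laevis list and 38.7% of the X. tropicalis list. Without the isolated section, 5325 symbols could be compared, of which 170 (3.19%) were higher in X. laevis and 82 (1.54%) in X. tropicalis, and 15 were shared, with ctdspl, acsl1 and itm2a added. Together the 12 made up 2.74% and 2.02% of the counts of the X. laevis tips and 5.02% and 2.80% of those of the X. tropicalis tips. In the rest they made up 0.404% and 0.393%, and 0.708% and 0.390%. The tip share was thus above the rest share in each of the 4 oocytes, as the choice of these symbols fixes.

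**Figure D1:**
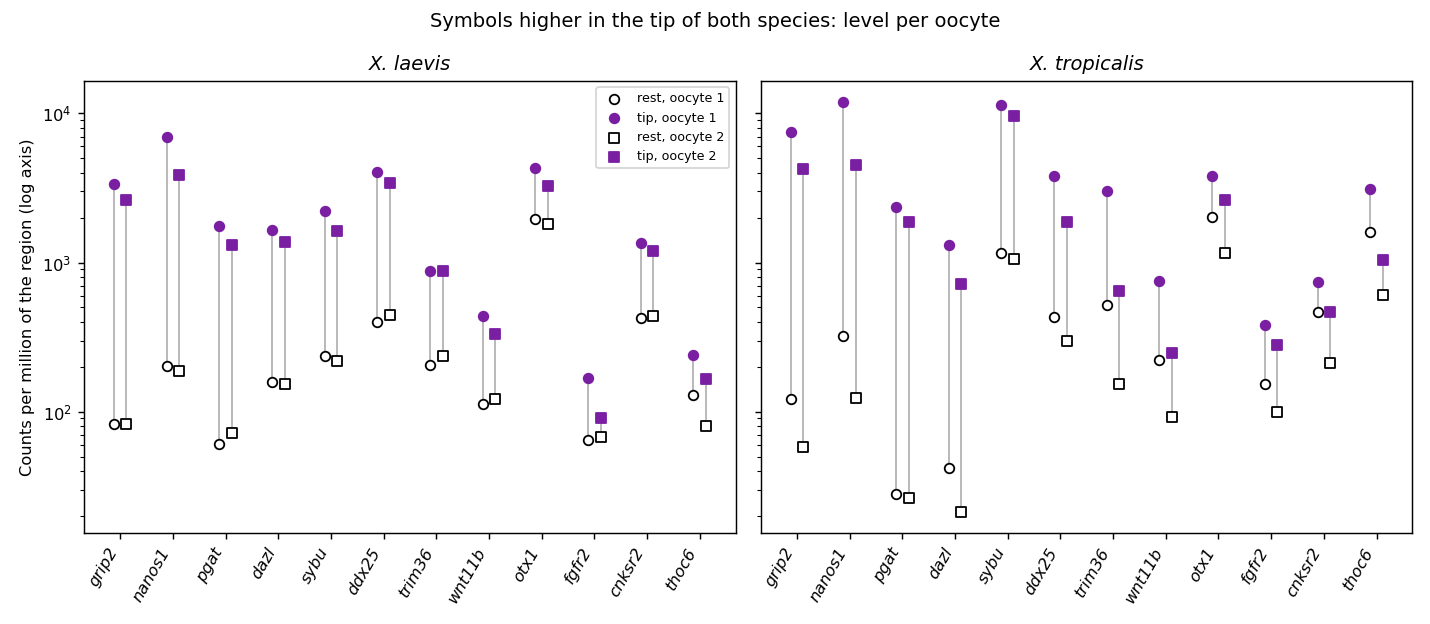
Level in CPM (log axis) of the 12 symbols higher in the tip of both species, with 1 point per oocyte for the tip and for the rest of the vegetal zone. Germ plasm RNAs are widest apart, for example grip2 at 3340 and 2643 CPM in the X. laevis tips against 82.2 and 83.1 CPM in the rest, while thoc6 changes by 0.97 and 0.88 on the log2 scale in X. laevis and X. tropicalis.

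RNAs of the germ plasm were among the steepest in both species. nanos1, which encodes an RNA-binding translational repressor of the germ line, had 6974 and 3882 CPM in the X. laevis tips and 201 and 186 CPM in the rest. In X. tropicalis it had 12008 and 4483 CPM in the tips and 323 and 124 CPM in the rest. Tip and rest did not overlap in either species. The log2 fold change was 4.75 ± 0.36 in X. laevis, with an adjusted p of 3.66e-36 by edgeR's quasi-likelihood test (2 oocytes). In X. tropicalis it was 5.20 ± 0.25, with an adjusted p of 3.02e-89 by the same test. Here and below, ± is a standard error (SE) derived from that test and its pooled spread, not from the difference between the 2 oocytes. This single RNA made up 0.697%, 0.388%, 1.2% and 0.448% of all tip counts in the 2 X. laevis and the 2 X. tropicalis oocytes.

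grip2 encodes a PDZ domain scaffold protein that X. laevis germ cells need to migrate. Its level was 3340 and 2643 CPM in the X. laevis tips and 82.2 and 83.1 CPM in the rest, a log2 fold change of 5.17 ± 0.33. In X. tropicalis it was 7511 and 4241 CPM in the tips and 122 and 57.7 CPM in the rest, or 6.06 ± 0.27. Its CPM values were also summed over the sections. Of that sum, 91.7% and 89.9% lay in the X. laevis tips and 95.2% and 97.1% in the X. tropicalis tips. Each section weighs the same in this sum, whatever its total count, so these are not shares of the grip2 counts.

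pgat is a germ plasm RNA named for its association with primordial germ cells. It had 1768 and 1306 CPM in the X. laevis tips against 61 and 71.6 CPM in the rest, and 2340 and 1878 CPM in the X. tropicalis tips against 28.2 and 26.5 CPM in the rest. The log2 fold changes were 4.52 ± 0.28 and 6.26 ± 0.28. dazl, an RNA-binding protein required for germ cell development, had 1642 and 1373 CPM against 157 and 153 CPM in X. laevis, and 1320 and 722 CPM against 42 and 21.2 CPM in X. tropicalis. With all kept sections, dazl levels in tip and rest were higher in the 2 X. laevis than in the 2 X. tropicalis oocytes. For the tip this depended on the isolated section. The other sections of the first X. tropicalis tip had 1766 CPM of dazl, above both X. laevis tips. ddx25, an RNA helicase known in the frog as DEADSouth, had 4024 and 3405 CPM against 400.1 and 448 CPM in X. laevis and 3787 and 1862 CPM against 433 and 298 CPM in X. tropicalis.

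Of the listed germ plasm genes, 5 of 14 tested X. laevis genes and 7 of 13 tested X. tropicalis genes were higher. Over all tested genes the shares were 5% and 0.656%. The list's median log2 fold change was 0.14 and 0.88, against −0.24 and −0.21 for all tested genes. The additional X. tropicalis members were dnd1, an RNA-binding protein that protects germ cell RNAs, and velo1, whose protein is related to the Balbiani body organizer Bucky ball of zebrafish. dnd1 had 1546 and 898 CPM in the X. tropicalis tips and 819 and 503 CPM in the rest. The log2 fold change was 0.88 ± 0.22. The part of the rest bordering the tip already had 1381 and 773 CPM of dnd1, against 629 and 411 CPM in the inner part. The larger step thus lay before the tip. In X. laevis dnd1.L had 16.6 and 25.5 CPM in the tips and 16.4 and 26.4 CPM in the rest. velo1 had 2915 and 706 CPM in the X. tropicalis tips against 1166 and 318 CPM in the rest (1.24 ± 0.22), and 194 and 184 CPM in the X. laevis tips against 183 and 231 CPM in the rest (−0.13 ± 0.22). The velo1 levels therefore overlapped between tip and rest in X. laevis. In X. tropicalis, too, the second tip lay below the rest of the first oocyte, although both oocytes changed in the same direction. Between species (X. laevis minus X. tropicalis), velo1 differed by −1.37 (adjusted p = 0.00156, edgeR's quasi-likelihood test). The dnd1 difference of −0.90 missed the threshold (adjusted p = 0.367, same test).

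Not every germ plasm component was higher in the tip. The helicase ddx4 had log2 fold changes of −0.41 ± 0.24 in X. laevis and −0.23 ± 0.42 in X. tropicalis, the RNA-binding protein rbpms2 −0.06 ± 0.23 for its .L copy and −0.05 ± 0.22, and the lipid droplet protein plin2 0.42 ± 0.25 and 0.27 ± 0.22, none past the threshold. The reticulon rtn3 passed in X. tropicalis without the isolated section (1.02, against 0.70 ± 0.24 with it).

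**Figure D2:**
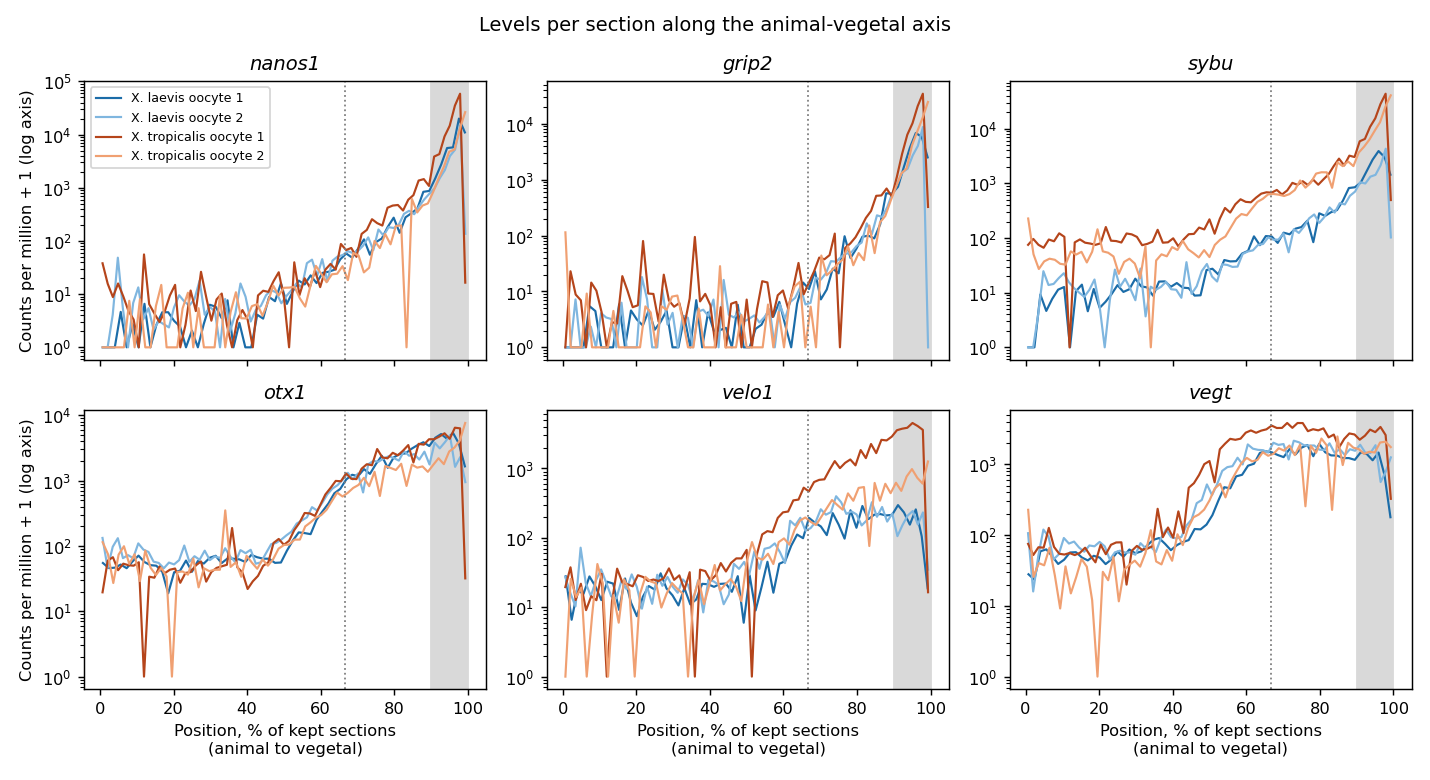
Level in CPM of selected RNAs in each kept section along the animal-to-vegetal axis of the 4 oocytes, with the tip marked. nanos1 reaches 19944 and 14854 CPM in its highest X. laevis section and 58549 and 26362 CPM in its highest X. tropicalis section, all in the tip, whereas vegt peaks before the tip.

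Several RNAs of the dorsal determination list were higher in the tip as well. sybu, which encodes syntabulin, an adaptor that links cargo to kinesin motors, had 2230 and 1620 CPM in the X. laevis tips against 235 and 219 CPM in the rest, a log2 fold change of 3.07 ± 0.28. In X. tropicalis it had 11433 and 9548 CPM against 1150 and 1062 CPM, or 3.24 ± 0.23. Levels in X. tropicalis were higher than in X. laevis in both regions, while the log2 fold changes differed by −0.18 ± 0.32 between species, with an adjusted p of 0.929 in the edgeR fit of both species.

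trim36, a ubiquitin ligase needed for the vegetal microtubules of cortical rotation in X. laevis, had 880.2 and 875 CPM in the X. laevis tips against 206 and 238 CPM in the rest (1.99 ± 0.24). In X. tropicalis the tips had 2998 and 644 CPM and the rest 523 and 153 CPM (2.31 ± 0.23), and oocyte 1 exceeded oocyte 2 in both regions. The Wnt ligand wnt11b, a maternal axis-inducing signal of X. laevis, had 436 and 334 CPM against 112 and 121 CPM in X. laevis (1.71 ± 0.22) and 749 and 246 CPM against 222 and 91.5 CPM in X. tropicalis (1.61 ± 0.25). The X. tropicalis annotation has a further entry, wnt11, with 698 and 304 CPM against 244 and 94.8 CPM. Reads of such close relatives may have been divided between them, and both values are uncertain for that reason. A further Wnt ligand, wnt5a, was higher in the X. tropicalis tip by 0.93 ± 0.24.

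In all, 3 of 17 tested X. laevis genes and 5 of 17 tested X. tropicalis genes of this list were higher, against 5% and 0.656% of all tested genes. None was lower in either species by edgeR or by DESeq2, although 3 and 2 were lower at an unadjusted p below 0.05 by edgeR. Of the other listed members, the log2 fold changes of ctnnb1, which encodes beta-catenin, were −0.14 ± 0.24 and −0.55 ± 0.22 for the .L and .S copies of X. laevis and −0.08 ± 0.24 in X. tropicalis. Those of apc, part of the beta-catenin destruction complex, were −0.47 ± 0.22 and −0.36 ± 0.24, and none of these passed the threshold. The remaining members that did not pass, axin1, dvl2, dvl3, gsk3b and tcf7l1 among them, ranged from −1.24 (porcn.L) to 0.58 (axin1.S) in X. laevis and from −0.90 (fzd7) to 0.50 (tpst1) in X. tropicalis.

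**Figure D3:**
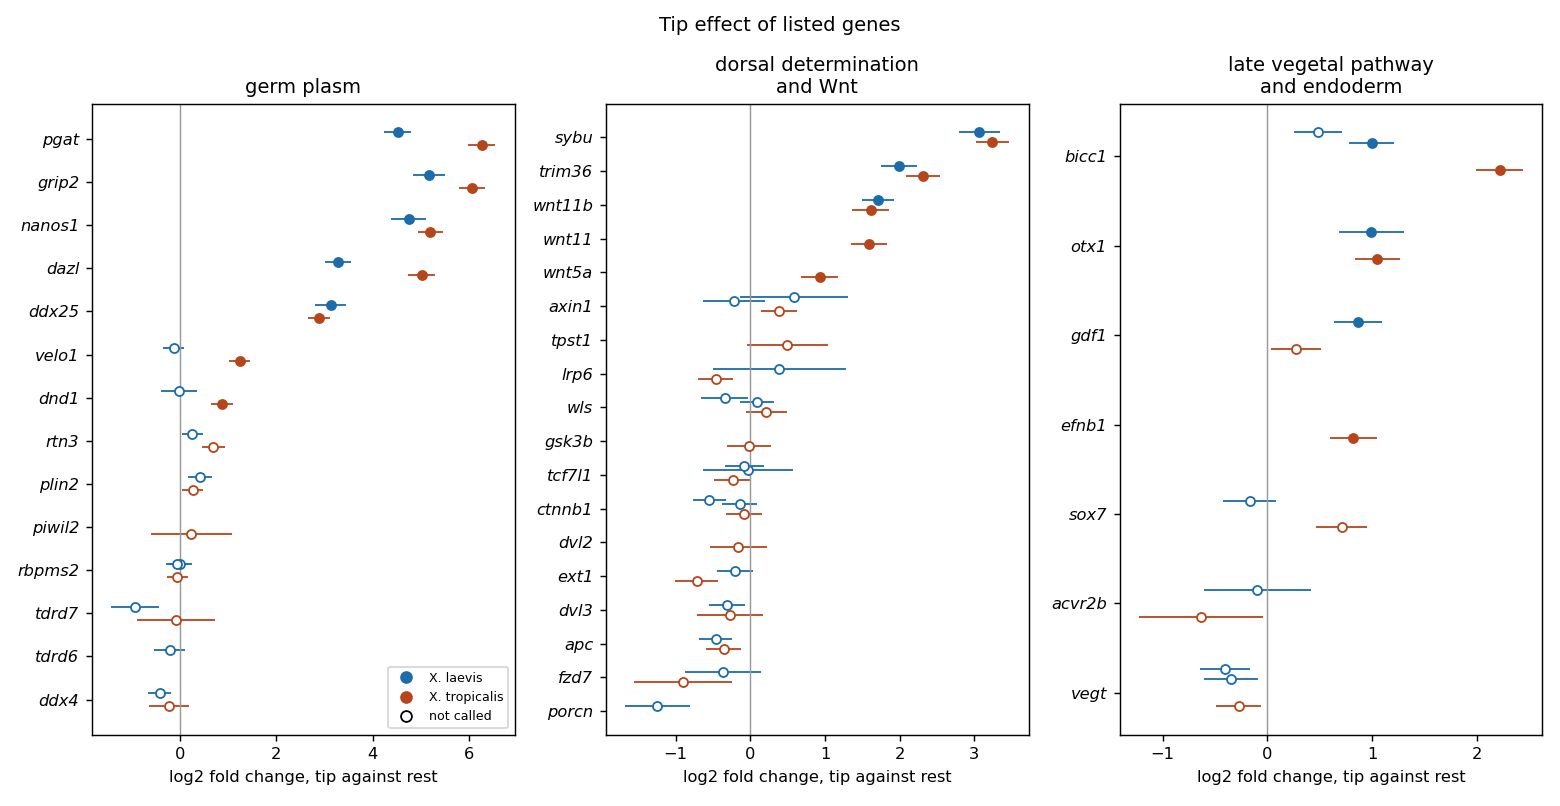
log2 fold change of tip against rest (x axis) with its standard error for the tested members of the germ plasm, dorsal determination and late vegetal pathway lists in each species. Germ plasm values reach 5.17 in X. laevis and 6.26 in X. tropicalis, while most Wnt pathway components lie near the median of all genes.

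RNAs of the late vegetal pathway included several that were higher in the tip. otx1, a homeodomain transcription factor, had 4331 and 3275 CPM in the X. laevis tips against 1965 and 1822 CPM in the rest, and 3819 and 2625 CPM in the X. tropicalis tips against 2017 and 1156 CPM in the rest. The log2 fold changes were 0.99 ± 0.31 (adjusted p = 0.0276, edgeR's quasi-likelihood test) and 1.05 ± 0.21 (adjusted p = 0.000274). Of the otx1 CPM summed over sections, the tip held 39.5% and 33.1% in X. laevis and 39.7% and 48% in X. tropicalis. These again weigh each section the same and are not shares of the counts.

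bicc1, an RNA-binding translational regulator related to fly Bicaudal-C, had 440.1 and 322 CPM against 243 and 146 CPM for its .L copy in X. laevis (1.00 ± 0.22), and the .S copy had a log2 fold change of 0.49 ± 0.23 that missed the threshold. In X. tropicalis, bicc1 had 2859 and 2092 CPM against 559 and 493 CPM (2.22 ± 0.22). gdf1, which encodes the TGF-beta ligand Vg1, was higher in X. laevis, where gdf1.L had 612 and 575 CPM against 297 and 356 CPM (0.87 ± 0.23). In X. tropicalis gdf1 had 397 and 447 CPM against 360 and 337 CPM (0.27 ± 0.24), which missed the threshold. The membrane-bound ligand efnb1 was higher in the X. tropicalis tip, with 999 and 763 CPM against 613 and 397 CPM (0.82 ± 0.23). The part of the rest bordering the tip already had 948 and 635 CPM, against 500 and 315 CPM in the inner part. The larger step in efnb1 thus lay before the tip.

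vegt, the T-box transcription factor of endoderm formation, showed another distribution. Its log2 fold change was −0.35 ± 0.26 and −0.41 ± 0.24 for the X. laevis copies and −0.28 ± 0.21 in X. tropicalis, none past the threshold. Of the vegt CPM summed over sections, the tip held 16.9% and 16.4% in X. laevis and 16.9% and 24.2% in X. tropicalis. The whole vegetal zone held 74.3%, 68.8%, 68.2% and 74.8% of that sum, which is not a share of the counts. Its highest section lay at 79.8% and 72.9% of the kept axis in X. laevis and at 71.1% and 84.8% in X. tropicalis, ahead of the tip. Of the late pathway list, 3 of 8 tested genes were higher in X. laevis and 3 of 7 in X. tropicalis. Over all tested genes the shares were 5% and 0.656%. The list's medians were 0.20 and 0.71, against −0.24 and −0.21 for all tested genes. Without the isolated section 4 X. tropicalis members were higher, against 1.57% of all tested genes. The member added was sox7, with 0.89 against 0.71 ± 0.24 with that section.

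Of the other symbols shared by both species, fgfr2 encodes a receptor tyrosine kinase. It had 168 and 91 CPM in the X. laevis tips against 64.2 and 68 CPM in the rest. In X. tropicalis it had 381 and 279 CPM in the tips against 152 and 98.8 CPM in the rest. The part of the rest bordering the tip had 96.6 and 88.3 CPM in X. laevis and 231 and 178 CPM in X. tropicalis. In X. laevis oocyte 2 the highest fgfr2 section lay at 84% of the kept axis, ahead of the tip. cnksr2, a scaffold of Ras signaling, had 1356 and 1196 CPM against 422 and 440.1 CPM in X. laevis, and 738 and 463 CPM against 466 and 212 CPM in X. tropicalis. Here the second X. tropicalis tip lay just below the rest of the first oocyte, although both oocytes changed in the same direction. thoc6, a subunit of the THO complex of mRNA export, changed by 0.97 ± 0.21 and 0.88 ± 0.22. Of the 12 shared symbols, grip2, nanos1, pgat, dazl and sybu were called in both species under each alternative that gave a test, and the other 7 were lost in one or both species under at least one, as given in the closing section.

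Of the X. tropicalis genes that were not among the shared symbols, klhl11 was one of the steepest. This adaptor of cullin ubiquitin ligases had 6008 and 5152 CPM in the tips and 119 and 117 CPM in the rest, a log2 fold change of 5.56 ± 0.26. kif14, a kinesin of cytokinesis, had 3525 and 2732 CPM against 330 and 361 CPM (3.17 ± 0.23). exd2, an exonuclease gene, changed by 5.20 ± 0.28, and the entries LOC779566 and MGC145685 by 3.47 ± 0.24 and 3.11 ± 0.32. Of the 58 X. tropicalis genes, 27 had no symbol tested in X. laevis, klhl11 and kif14 among them. The remaining 31 include the 12 symbols higher in both species, so part of their X. laevis level is fixed by that choice. Their median log2 fold change was 1.56 in X. tropicalis and 0.31 in X. laevis, where all shared symbols had a median of −0.26. Conversely, 171 shared symbols were higher in X. laevis, the same 12 among them. Their median was 1.14 there and −0.18 in X. tropicalis. All shared symbols had a median of −0.21 in X. tropicalis, and 91 of the 171 lay above it.

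The steepest X. laevis genes outside these lists were kif13b.L, exd2-b and several unnamed loci. kif13b.L, a plus-end directed kinesin, had 605 and 270 CPM in the tips and 29 and 22.1 CPM in the rest (4.00 ± 0.23). exd2-b, annotated as a copy of an exonuclease gene, had 377 and 292 CPM against 21.7 and 24.4 CPM (3.84 ± 0.23). LOC108718903 had 939 and 651 CPM against 30.7 and 29.8 CPM (4.68 ± 0.26), and LOC398520 had 1176 and 1038 CPM against 61 and 68.3 CPM (4.09 ± 0.26). Of the 778 higher genes, 397 had no gene name, so symbol matching could not place them. Of 45 symbols with both an .L and an .S copy tested and at least one higher, both copies were higher for 17, against 5% of all tested genes. No pair was called in opposite directions. As 1.22% of all tested genes were lower, few such pairs could arise, and their lack does not show that copies agree.

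Ribosomal protein genes made up a large group of the X. laevis list. Cytosolic ribosomal protein genes were higher for 87 of 94 tested members, against 5% of all tested genes, with a median log2 fold change of 1.07. Summed over the group, the X. laevis tips had 56547 and 47745 CPM against 22316 and 26745 CPM in the rest, while the first 10% of the sections at the animal end had 22632 and 26702 CPM. In X. tropicalis no member was higher and 2 of 75, rpl36 and rps15a, were lower, against 0.407% of all tested genes. The X. tropicalis tips had 14974 and 16148 CPM against 15723 and 18474 CPM in the rest. When the isolated section was left out, 8 members were lower, against 2.38% of all tested genes, and the first of these tips had 10832 CPM. At an unadjusted p below 0.05 by edgeR, 1 member was higher and 16 lower in X. tropicalis. Of all 8837 tested genes, 225 and 792 were so. By DESeq2, 82 members were higher in X. laevis and none passed the threshold in X. tropicalis.

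Markers of somatic ovary cells were also higher in the X. laevis tips. Of the tested markers, 3 of 5 follicle cell, 6 of 7 stroma and vessel and 2 of 3 blood cell genes were higher, against 5% of all tested genes. Summed stroma and vessel markers, for example the collagen gene col1a2 and the matrix protein genes dcn and sparc, had 405 and 391 CPM in the tips against 63.7 and 139 CPM in the rest. Blood markers, mostly the globin gene hbg1, had 2310 and 645 CPM against 393 and 284 CPM, and follicle markers 218 and 47.9 CPM against 32 and 27.2 CPM. The follicle marker gja1.L was higher in oocyte 1 alone (90.6 against 10.7 CPM) and had 7.98 against 9.34 CPM in oocyte 2. In the X. laevis vegetal zone, lhcgr, amh, cyp19a1, cyp11a1, inhba, postn and cdh5 had no count.

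In X. tropicalis 11 of 12 follicle markers had no count in the vegetal zone. Only 1 of 12 follicle and 5 of 12 stroma and vessel markers had an entry in the X. tropicalis counts, against 8 and 10 in X. laevis. Whether the missing symbols were unannotated or without counts cannot be told. The X. tropicalis sums therefore cover fewer genes and cannot be set directly against those of X. laevis. Follicle markers summed to 23.8 and 4.10 CPM in the tips against 8.77 and 5.30 CPM in the rest, and stroma and vessel markers to 3.97 and 4.10 CPM against 2.77 and 4.64 CPM. Blood markers summed to 35.7 and 49.2 CPM in the tips against 40.6 and 32.5 CPM in the rest. More cells of a type and more RNA per cell cannot be told apart in summed sections. These markers moved with the ribosomal protein genes and with the length of the X. laevis list, and their part in either was not tested. Whether the marker levels bear on the 12 shared symbols was not tested in either species.

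**Figure D4:**
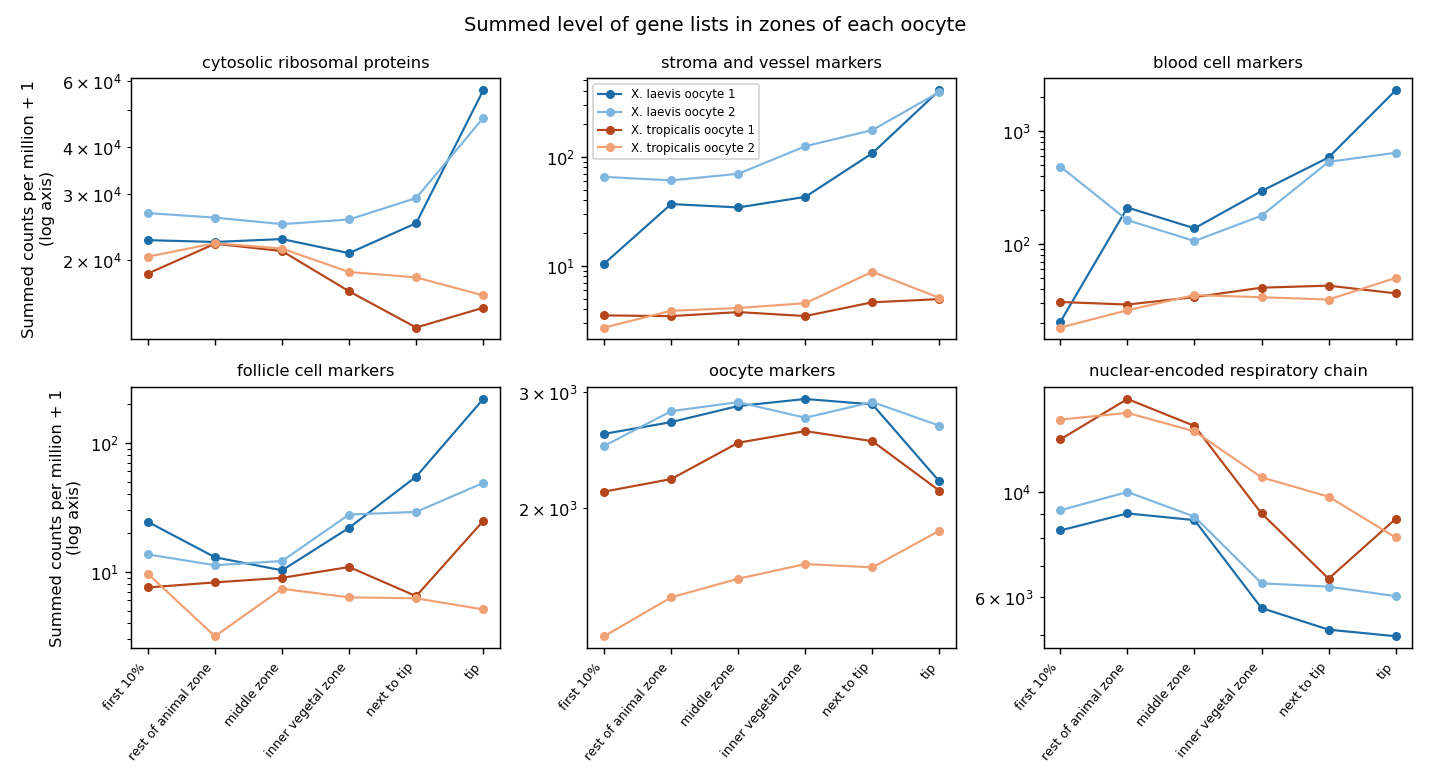
Summed level in CPM plus 1 (log axis) of marker and housekeeping lists in zones along the axis, with 1 line per oocyte, from the animal end to the tip. Stroma, blood and ribosomal protein sums are above the rest in both X. laevis tips, with 56547 and 47745 CPM of ribosomal protein RNAs. Stroma and vessel markers stay at 3.97 and 4.10 CPM in the X. tropicalis tips, where only 5 of the 12 listed had an entry.

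Other lists held few changes. Over all tested genes, 5% were higher and 1.22% lower in X. laevis, and 0.656% and 0.407% in X. tropicalis. Single called members of a list are to be read against these shares and are no result about the list. Of the animal transcription factors (7 tested in X. laevis, 5 in X. tropicalis), the proteasome subunits (38 and 30) and the oocyte markers (13 and 12), none passed the threshold by edgeR or DESeq2. At an unadjusted p below 0.05, 1 and 1, 3 and 3, and 3 and 0 of them were lower, and 1 proteasome gene was higher in X. tropicalis. Of cortical actin genes, actg1.S (0.72 ± 0.23) and arpc2.S (1.35 ± 0.29) of 18 were higher in X. laevis and mical3, an actin-oxidizing enzyme (0.84 ± 0.21), of 19 in X. tropicalis. Of RNA localization and binding factors, 1 of 30 was lower in X. laevis, zar1.S, a maternal RNA-binding protein (−0.90 ± 0.24). In X. tropicalis khdrbs1 was higher by 1.12 ± 0.26 but stood at −0.36 without the isolated section. Of kinesin genes 1 of 18 and 1 of 22 were higher, and of dynein and dynactin genes 1 of 17 was lower in X. laevis, dctn6.L (−1.07 ± 0.34). At an unadjusted p below 0.05 by edgeR, 7 kinesin and 5 dynein and dynactin genes were lower in X. laevis, and 2 and 3 in X. tropicalis. Of all tested genes, 1767 of 15559 and 792 of 8837 were so. Among the genes that the study lists as vegetal in zebrafish and frog or enriched in zebrafish germ cells, 5 of 20 were higher in X. laevis and 4 of 14 in X. tropicalis (9 without the isolated section). That list was chosen partly on these oocytes and is not independent evidence of its direction.

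With all kept sections, no symbol passed the threshold as lower in the tip of both species. Of the 5331 shared symbols, 88 (1.65%) were lower in X. laevis and 28 (0.525%) in X. tropicalis by edgeR. None was lower in both, although 74 were at an unadjusted p below 0.05. With lists this short, the lack of a shared symbol does not show that the species differ. DESeq2 called no gene lower in either species, so it could not call any in both. Without the isolated section, 163 (3.06%) were lower in X. tropicalis and 1 was shared, the replication helicase gene mcm7. In X. laevis the steepest of them rested on few counts. LOC108718411 had 1 and 0 counts in the tips against 54 and 75 in the rest, and med15-b, a Mediator subunit gene, had 3 and 1 against 58 and 98. In X. tropicalis gps1, a subunit gene of the COP9 signalosome, had 55.5 and 69.7 CPM against 209.6 and 133 CPM (−1.43 ± 0.32), and cdc25c, a phosphatase that activates the mitotic kinase, had 31.7 and 90.2 CPM against 134 and 178 CPM (−1.40 ± 0.32). With TMM factors, which change the scaling alone, 38 genes were lower in X. laevis and 16 in X. tropicalis. DESeq2, which differs in scaling and in the test, called no gene lower in either species, with 14 and 23 lower at an unadjusted p below 0.05.

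The change at the tip was compared between species in one fit of all 8 summed regions. It was larger, counted with sign, in X. laevis for 106 of 5331 symbols (1.99%) and larger in X. tropicalis for 26 (0.488%). Without the isolated section the counts were 142 (2.67%) and 46 (0.864%). Across the shared symbols, which are not independent replicates, Pearson's r of the log2 fold changes was 0.085 and Spearman's rho 0.032.

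pgat and dazl were steeper in X. tropicalis, with differences of −1.75 ± 0.34 and −1.74 ± 0.33 on the log2 scale (X. laevis minus X. tropicalis) and adjusted p of 6.3e-05 and 5.66e-05 by edgeR's quasi-likelihood test. When only sections above 25% of the median total were kept, these differences changed sign, to 0.78 and 0.45, and no longer passed the threshold (adjusted p = 0.428 and 0.758 by edgeR's quasi-likelihood test). That filter removed the section in which both RNAs peaked in each X. tropicalis oocyte, which held 15850 and 14301 counts. In it pgat had 15584 and 13356 CPM and dazl 6688 and 5035 CPM. The X. laevis peak sections of both RNAs stayed, so the tips compared were no longer those above. For nanos1 the difference was −0.45 ± 0.33 and for grip2 −0.89 ± 0.33, and neither passed the threshold. grip2 did so without the isolated section, with −1.03 and an adjusted p of 0.00508 in the same edgeR test.

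Differences in favour of X. laevis included ribosomal protein genes and atf4. rps25 had 1430 and 1117 CPM in the X. laevis tips against 384 and 531 CPM in the rest, and 27.8 and 53.3 CPM in the X. tropicalis tips against 98.3 and 74.9 CPM in the rest. atf4, a transcription factor of the integrated stress response, had 1535 and 774 CPM against 361 and 372 CPM in X. laevis and 3.97 and 32.8 CPM against 26.8 and 35.8 CPM in X. tropicalis, where the first tip rested on 1 count. The somatic marker levels given above moved in the same direction in X. laevis, and their part was not tested. The 5 symbols higher in X. laevis and lower in X. tropicalis were cd63, cirbp, clip1, rpl36 and rps15a (13 symbols without the isolated section), and none was lower in X. laevis and higher in X. tropicalis by edgeR, with 9 so at an unadjusted p below 0.05.

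**Figure D5:**
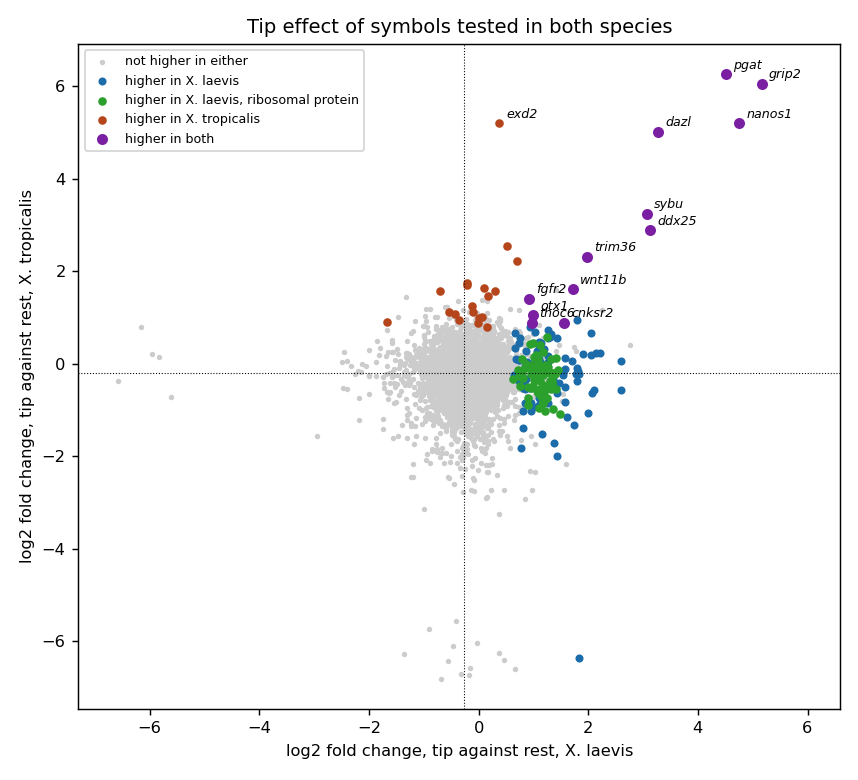
log2 fold change of tip against rest in X. laevis (x axis) and X. tropicalis (y axis) for the 5331 symbols tested in both, with the 12 symbols higher in both marked and dotted lines at the medians. The marked symbols lie in the upper right, from 0.92 and 1.40 for fgfr2 to 5.17 and 6.06 for grip2, while most symbols lie around the medians and points far to the left or far down are symbols with no count in either tip of that species.

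Most higher genes were graded towards the pole. The levels rose from the inner part of the vegetal zone through the next 10% of sections to the tip in both oocytes for 452 of the 737 higher X. laevis symbols (61.3%, against 5.29% of all tested) and for 44 of the 58 X. tropicalis genes (75.9%, against 2.52%). The tip also exceeded the animal zone for 725 of 737 (98.4%, against 22.5%) and for 50 of 58 (86.2%, against 19.9%). Since tip and inner sections chose these genes, the shares are a description. In X. tropicalis exd2 was present at both ends, with 277 and 75.2 CPM in the animal zone, 29.1 and 16 CPM in the inner part of the vegetal zone and 1487 and 619 CPM in the tip.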

How the data were processed

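Per the paper's methods, the authors aligned tomo-seq reads with STAR (2.5.3a in the submitters' processing notes) to X. laevis genome 9.2 or X. tropicalis genome 9.1 and deposited UMI counts per gene and section (6 nt tags, 8 nt section barcodes). The highest value, 4106 in X. laevis oocyte 2, exceeds the number of possible tags, so whether these counts carry a correction for repeated UMIs is not settled; none was added, and a corrected alternative was run. Spike-in rows were dropped. They held 2, 14446, 115825 and 0 counts, so sections were kept by total count, at 10% or more of the median. Counts of tip and rest were summed per oocyte. Genes with at least 10 counts in tip plus rest in each oocyte were fitted with edgeR 4.0.16 (R 4.3.3, quasi-likelihood, oocyte as block, library size = region total, no TMM). Tip and rest come from 1 oocyte, so the block follows from the design; deviations of same-oocyte regions correlated at 0.222 in X. laevis and 0.398 in X. tropicalis. Species were matched by symbol.

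On simulated data, 24.4% of 2-fold and 67.5% of 4-fold changes were recovered in X. laevis (15559 genes), 33.3% and 73.3% in X. tropicalis (8837 genes). In the fit of both species, 9.82% of 2-fold and 59.1% of 4-fold differences were recovered (5331 symbols). A species difference that missed the threshold is therefore not shown to be absent.

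Members, gene lists and tests were chosen with earlier results of these data known. Named were, by rule, per species the 10 steepest genes in each direction with at least 50 counts in each oocyte and the same sign in both, up to 15 symbols called in both species, 6 per direction of the species difference, the members of the germ plasm, dorsal determination and late pathway lists, and up to 4 called members of each other list; examples from each are given. cd63, mcm7, ctdspl, acsl1 and itm2a fall outside the rule and were named after their values were seen. Alternatives were DESeq2 1.42.0, TMM, count filters, section filters, tip widths and left-out sections or oocytes. No sequence is shown.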

Additional observations from a re-analysis of the deposited data

Results flagged for a closer look

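In each of the following results the change at the tip differed between the species by the test of the difference itself, edgeR's quasi-likelihood test over 5331 symbols. Without the replicate block, no symbol passed the threshold for this difference in either direction. The calls also depended on which oocyte was left out, as given in the closing section. Values are log2 fold changes in X. laevis minus those in X. tropicalis. The difference was positive for the linker protein clip1 at 2.59, the ribosomal protein genes rps25 at 2.58 and rps15a at 2.35, the mitochondrial ribosomal protein gene mrpl16 at 2.51, tpd52l2 at 2.45 and the stress transcription factor atf4 at 2.40. Of these, the X. tropicalis tips held 1 and 3 counts of tpd52l2, 1 and 4 of mrpl16 and 1 and 8 of atf4.

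The difference was negative for exd2 at −4.81, sptssb at −2.28, the kinase csk at −2.08, the magnesium transporter slc41a2 at −1.91, armc7 at −1.83, pgat at −1.75 and dazl at −1.74. Without the isolated section of X. tropicalis oocyte 1, sptssb stood at −0.32 (adjusted p = 0.913, edgeR), armc7 at −0.98 (adjusted p = 0.469), and tpd52l2 at 2.05 (adjusted p = 0.0991), and none of these passed the threshold. The exd2 value compares the X. laevis entry of that exact symbol, whereas the X. laevis entry exd2-b, with a log2 fold change of 3.84, is not matched by symbol.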

How the results depend on the processing

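Counts are given as higher and lower in X. laevis (reported 778 and 190, or 737 and 192 by symbol), higher and lower in X. tropicalis (58 and 36), higher and lower in both (12 and 0), and larger in X. laevis or X. tropicalis (106 and 26). DESeq2 gave 516 and 0 (485 and 0 by symbol; 14 lower at an unadjusted p below 0.05 in each), 0 lower in X. tropicalis (23 unadjusted) and species differences of 37 and 7. TMM factors gave 38 lower in X. laevis (36 by symbol), 130 and 16 in X. tropicalis, 20 shared and 13 larger in X. tropicalis. Without the isolated section, chosen after seeing the data, X. tropicalis had 138 and 210, 1 symbol was lower in both and 46 differences were larger in X. tropicalis. Leaving out the last kept section of each oocyte gave 129 and 143 in X. tropicalis, 2 lower in both and 46. No count filter gave 97 lower in X. laevis (97 by symbol) and 21 in X. tropicalis. With only the next 10% as rest, X. tropicalis had 14 and 0 (201 lower unadjusted), 7 were shared and 18 and 4 differed. A section filter of 25% gave 16 (13 by symbol) lower in X. laevis and 96 higher in X. tropicalis, and one of 5% gave 69 lower in X. tropicalis. A tip of 15% gave 79 (73 by symbol) lower in X. laevis, 166 and 252 in X. tropicalis, 19 shared and 41 larger in X. tropicalis. A tip of 5% gave 20 and 2 in X. tropicalis, 8 shared and 50 larger in X. laevis. The cause of these shifts was not tested.

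Without the replicate block (the oocyte), the counts were 356 and 2 in X. laevis (329 and 2 by symbol), 10 and 0 in X. tropicalis (257 lower unadjusted), 5 shared, and species differences of 0 and 0 (187 and 61 unadjusted). Leaving out 1 oocyte within a species leaves a value with no test. The species differences could be tested and ranged from 0 to 92 larger in X. laevis and from 1 to 71 larger in X. tropicalis: 0 and 1 without X. laevis oocyte 1 (213 larger in X. laevis unadjusted), 76 and 5 without X. laevis oocyte 2, 45 and 10 without X. tropicalis oocyte 1 and 92 and 71 without X. tropicalis oocyte 2, the lone oocyte being assumed to vary like the others.

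Reversals among named genes were sptssb in X. tropicalis (−0.48 without the last kept sections, −0.36 without the isolated section), khdrbs1 (−0.25 and −0.36 likewise, and from −0.31 without X. tropicalis oocyte 1 to 2.32 without oocyte 2) and gja1.L (from −0.23 without X. laevis oocyte 1 to 3.07 without oocyte 2). The species differences of pgat (0.78) and dazl (0.45) also reversed with a section filter of 25%, which removed the X. tropicalis peak sections of both RNAs. Of the other values of named genes under these settings, 1129 kept their direction and side of the threshold and 287 kept their direction but were no longer past it. In addition, with 1 oocyte left out, all values other than the reversals above kept their direction. Of the values without a test, 100 moved by at least the SE of the reported fit. Some of the species differences kept their direction but no longer passed the threshold. Of the 12 shared symbols, trim36 and ddx25 were lost in X. tropicalis without the block, wnt11b there and with only the next 10% as rest, and cnksr2 in X. tropicalis, thoc6, fgfr2 and otx1 in both species, under these and a tip of 5%. In X. laevis fgfr2 was also lost with DESeq2 and otx1 with a section filter of 25%. Depth limits the X. tropicalis tips most, where 1 count is worth about 4 CPM.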

Other observations

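The X. laevis entries exd2 and exd2-b were distributed differently. exd2 had 235 and 232 CPM in the animal zone and 7.40 and 36.7 CPM in the tip, whereas exd2-b had 69.1 and 74 CPM in the animal zone, 16.2 and 16.8 CPM in the inner part of the vegetal zone and 377 and 292 CPM in the tip. The X. tropicalis entry exd2 had both ends, 277 and 75.2 CPM in the animal zone and 1487 and 619 CPM in the tip. These genes were singled out after their values were seen.

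Summed nuclear-encoded respiratory chain RNAs had lower levels in the vegetal zone than at the animal end in each of the 4 oocytes, a difference that was not tested. The first 10% of the sections had 8296 and 9150 CPM in X. laevis and 12901 and 14202 CPM in X. tropicalis, and the rest of the vegetal zone had 5504 and 6389 CPM and 8391 and 10490 CPM. The tips had 4967 and 6032 CPM and 8776 and 8019 CPM, and the X. tropicalis oocyte 1 tip had 5117 CPM without its isolated section. In X. tropicalis 2 of 78 tested members were lower in the tip, and 12 without the isolated section, against 0.407% and 2.38% of all tested genes.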
